A study of Mus musculus with 12 samples.

Results

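The 10 genes of leukotriene and prostaglandin synthesis followed here were chosen by symbol from the 57010 genes counted in 12 RNA-seq libraries of preosteoclasts. They are Alox5, Alox5ap, Lta4h, Ltc4s, Alox15, Alox12, Pla2g4a, Ptgs1, Ptgs2 and Ptges, and all 10 passed the filter on low counts, as did 15425 genes of the whole table. Preosteoclasts are bone marrow cells on the way to becoming osteoclasts, the cells that resorb bone. They were grown for 2 days with M-CSF and RANKL from marrow of female LSD1WT mice and of LSD1cKO mice, in which the histone demethylase LSD1 (gene Kdm1a) was deleted through LysM-Cre. LysM-Cre is driven by the lysozyme gene of myeloid cells, so the deletion began in the mouse and not in the dish. Which of the floxed alleles or the Cre the LSD1WT mice carried is not given in the sources used here. The deposited description gives an age of 2 months, and the study's sequencing methods give an older one.

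The 3 cultures were mandible marrow of mice whose upper molars had been ligated for 7 days, femur marrow of ligated mice, and femur marrow of unligated mice, each with 2 libraries per genotype. The labels name 9 mice, 5 LSD1WT and 4 LSD1cKO, and marrow of both sites was sequenced from 3 of them. Mandible LSD1WT replicate 3 is called mandible in its title and femur in its library name, and was taken as mandible. Library totals ran from 21375805 to 32526751 counts. Kdm1a, the targeted gene, lay between 61.2 and 71.3 CPM (a gene's counts in proportion to the scaled total of its library) in the 6 LSD1WT libraries and between 15.6 and 24.3 CPM in the 6 LSD1cKO libraries, and fell by 1.82 on the log2 scale (SE 0.11, edgeR quasi-likelihood test, Benjamini-Hochberg adjusted p = 3.56e-05).

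The label preosteoclast was checked against 12 osteoclast markers, such as Acp5 and Ctsk. Their summed level was at least 12142 CPM in 10 libraries, but it was 317.7 CPM in femur ligated LSD1WT replicate 2 and 389.7 CPM in femur unligated LSD1WT replicate 2. In these 2 libraries 10 macrophage markers summed to 13893 and 10813 CPM, against 1603 to 4657 CPM in the other 10. They come from different mice and are 1 of the 2 LSD1WT libraries in each femur comparison, so results below are given with all 12 libraries and, where the call or direction changes or the value moves by over 1.5 times, also without them. The 2 mandible LSD1WT libraries were the closest pair, with a biological coefficient of variation of 0.0247 against 0.0987 to 0.716 in the other pairs. The labels name different mice for them, and whether they are independent was not tested. Separations of the genotypes in the mandible rest on this pair.

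Eicosanoids are lipid signals made from arachidonic acid. Cytosolic phospholipase A2 (Pla2g4a) frees the acid from membranes. In the leukotriene branch 5-lipoxygenase (Alox5), helped by its membrane partner FLAP (Alox5ap), makes leukotriene A4, which Lta4h turns into leukotriene B4 and Ltc4s into leukotriene C4. Alox15 and Alox12 oxidise the same acid at other carbons. In the prostaglandin branch the cyclooxygenases Ptgs1 and Ptgs2 make prostaglandin H2, and Ptges turns it into prostaglandin E2. Ptgs1 is known as the constitutive cyclooxygenase and Ptgs2 as the inducible one, and prostaglandin E2 is known to promote osteoclast formation through osteoblasts and stromal cells.

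RefSeq promoter windows of build GRCm38.p6 were found for 8 of the 10 genes, and none was given for Alox15 or Alox5ap. Shown here are the 250 bases before the start of Alox5 and Ptgs2, the 2 genes that passed the test between genotypes, and of Ptgs1, the second cyclooxygenase, which did not. Alox5 lies on the minus strand at chr6:116461179-116461428, Ptgs2 on the plus strand at chr1:150099781-150100030, and Ptgs1 on the plus strand at chr2:36230176-36230425. Each sequence runs 5′ to 3′ along the gene and ends at the base before the start, and capitals mark a match to a searched motif.
Alox5: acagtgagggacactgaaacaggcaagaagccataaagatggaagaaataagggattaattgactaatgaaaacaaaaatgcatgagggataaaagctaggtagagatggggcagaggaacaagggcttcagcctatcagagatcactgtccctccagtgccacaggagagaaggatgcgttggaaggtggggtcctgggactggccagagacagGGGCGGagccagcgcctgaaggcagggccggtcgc
Ptgs2: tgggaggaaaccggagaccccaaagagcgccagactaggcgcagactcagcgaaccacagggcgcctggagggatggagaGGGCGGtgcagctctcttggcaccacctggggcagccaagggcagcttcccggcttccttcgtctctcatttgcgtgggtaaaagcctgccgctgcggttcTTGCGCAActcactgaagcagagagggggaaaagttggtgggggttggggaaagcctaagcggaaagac
Ptgs1: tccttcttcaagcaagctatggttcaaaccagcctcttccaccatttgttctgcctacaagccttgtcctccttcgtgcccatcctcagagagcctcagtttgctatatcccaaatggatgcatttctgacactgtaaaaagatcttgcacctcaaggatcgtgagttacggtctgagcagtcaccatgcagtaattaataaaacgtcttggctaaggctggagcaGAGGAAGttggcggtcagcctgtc

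Both strands of the 250 bases before each start were searched for 12 motifs, of which 4 had a match in a window of the 10 genes. The 50 bases after the start, which the windows also hold, were not searched. The GC box (GGGCGG) was found 1 time in Alox5, 35 to 30 bases before the start, and 1 time in Ptgs2, 170 to 165 bases before it, and 32.7% of all 32851 RefSeq windows hold it. The C/EBP letters (TTGCNNAA) were found in Ptgs2, 69 to 62 bases before the start, and are held by 9.56% of windows. The PU.1 core (GAGGAAG) was found in Ptgs1, 24 to 18 bases before the start, and is held by 10.6% of windows. The TATA box (TATAAA, 12.4% of windows) had no match in the 3 windows shown. No motif was shared by Alox5, Ptgs2 and Ptgs1, and the motifs of one window did not overlap each other. Of the other windows, Ptges and Alox12 held 2 GC boxes each and the second of 2 Pla2g4a windows held 1 TATA box. The 8 motifs with no match in any window of the 10 genes were the CRE (TGACGTCA, 1.55% of all windows), its core (TGACG, 17.8%), an E-box (CACGTG, 6.02%), the STAT motif (TTCNNNGAA, 7.02%), the AP-1 motif (TGANTCA, 6.75%), the GFI1 core (AAATCAC, 2.75%), the ISRE (2.98%) and the NF-kappaB motif (0.356%).

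Over the 3 cultures, Alox5 and Ptgs2 were higher in LSD1cKO cells. These were 2 of the 10 genes, where 3.53% of all genes tested were called (adjusted p under 0.05 in the edgeR quasi-likelihood test of genotype with culture as a term). The median log2 fold change of the 10 genes was 0.35, and that of all 15425 genes was −0.06. None of the 10 was called lower. Of the other 8, Alox15 and Ptges were higher with unadjusted p under 0.05 only, and 3 (Alox5ap, Lta4h and Pla2g4a) had estimates slightly below 0. An unadjusted p under 0.05, in either direction, was found for 2479 of the 15425 genes.

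**Figure D1:**
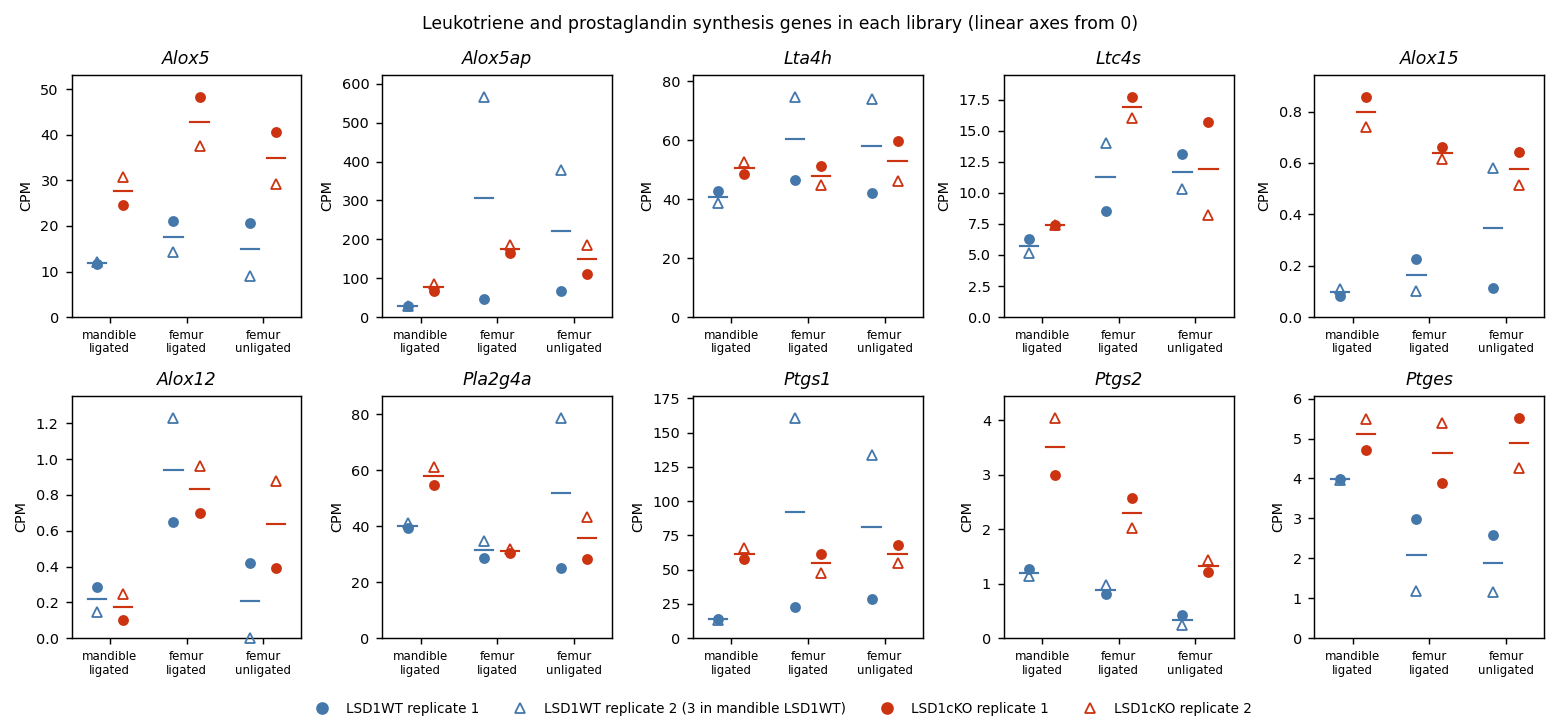
CPM of each of the 10 genes (vertical axes, linear from 0) in the 3 cultures (horizontal axes), with LSD1WT in blue and LSD1cKO in red, 1 symbol per library and a bar at the mean of the 2 libraries. Alox5 is higher in each LSD1cKO library than in any LSD1WT library, while Alox5ap and Ptgs1 are highest in the 2 femur LSD1WT replicate 2 libraries.

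Alox5 makes the first step of leukotriene synthesis. The mandible LSD1WT libraries held 11.6 and 12.2 CPM of it and the LSD1cKO libraries 24.7 and 30.7 CPM. Ligated femur libraries held 21.1 and 14.2 CPM (LSD1WT) against 48.4 and 37.5 CPM (LSD1cKO), and unligated ones 20.6 and 9.11 CPM against 40.7 and 29.3 CPM. The 6 LSD1cKO libraries all lay above the 6 LSD1WT libraries, which is so, in this direction, for 1.98% of the genes tested and for 1 of the 10 genes. The log2 fold change over the 3 cultures was 1.25 (SE 0.20, 95% interval 0.80 to 1.69, edgeR adjusted p = 0.00837), a level 2.37 times as high. By culture it was 1.22 (mandible), 1.28 (ligated femur) and 1.24 (unligated femur), each with an SE of 0.39. These values rest on few libraries. In the unligated femur the value was 0.77 without LSD1WT replicate 2 and 2.01 without LSD1WT replicate 1, and in the ligated femur it ran from 1.03 to 1.68 with 1 library left out in turn. Alox5 and Alox15 are also among the genes that the study itself chose from these or related samples.

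Alox5ap presents arachidonic acid to 5-lipoxygenase. In the 2 femur LSD1WT replicate 2 libraries it did not follow Alox5. Mandible levels were 29.0 and 28.1 CPM (LSD1WT) and 67.1 and 86.2 CPM (LSD1cKO), without overlap. Ligated femur LSD1WT held 45.4 CPM in replicate 1 and 567 CPM in replicate 2, with the LSD1cKO libraries between them at 164 and 187 CPM. For the unligated femur the LSD1WT values were 67.5 and 377 CPM and the LSD1cKO values 111 and 185 CPM. The LSD1WT replicate 2 libraries were therefore above, and the replicate 1 libraries below, every LSD1cKO library of their culture. The log2 fold change over the 3 cultures was −0.02 (SE 0.65, 95% interval −1.45 to 1.41, edgeR adjusted p = 0.995). Without the 2 femur LSD1WT replicate 2 libraries it was 1.52 (edgeR adjusted p = 0.000286).

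The ratio of Alox5ap to Alox5, each per length of its exons, shows the same split. It was 6.66 and 7.23 in mandible LSD1WT and 7.87 and 8.13 in mandible LSD1cKO. In femur LSD1WT it was 6.23 (ligated) and 9.49 (unligated) in the replicate 1 libraries and 115 and 119.8 in the replicate 2 libraries. The 4 femur LSD1cKO libraries lay between 7.90 and 18.3.

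Lta4h and Ltc4s act on leukotriene A4. Lta4h ran from 38.6 to 74.8 CPM in LSD1WT and from 44.9 to 59.9 CPM in LSD1cKO, with both values above 70 CPM in the femur LSD1WT replicate 2 libraries. Its log2 fold change was −0.05 (SE 0.18, 95% interval −0.46 to 0.35), and 0.28 without those libraries (edgeR adjusted p = 0.0667). Ltc4s was at 6.28 and 5.14 CPM in mandible LSD1WT, at 7.42 and 7.39 CPM in mandible LSD1cKO, and between 8.25 and 17.8 CPM in the femur libraries. Its log2 fold change was 0.33 (SE 0.20, 95% interval −0.11 to 0.77). For both, the interval includes 0 and excludes a change of the size seen in Alox5.

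Alox15 was rare in these cells. In the mandible 5 counts were summed over the 2 LSD1WT libraries and 49 over the 2 LSD1cKO libraries, a ratio of 8.25 scaled for library size (95% exact interval 3.31 to 26.5, counting error only). The ligated femur counts were 9 and 31 (ratio 3.58, 1.66 to 8.54) and the unligated femur counts 17 and 32 (ratio 1.71, 0.923 to 3.29). Femur unligated LSD1WT replicate 2 held 0.580 CPM, against 0.226 CPM or less in the other 5 LSD1WT libraries, and the LSD1cKO libraries held 0.513 to 0.859 CPM. The groups therefore overlapped through that library alone. A list of 5 markers of resident peritoneal-type macrophages, cells known for Alox15, was read beside it. The list summed to 3.17 to 5.26 CPM in 4 LSD1WT libraries, to 11.1 and 17.4 CPM in femur LSD1WT replicate 2 (ligated and unligated) and to 10.7 to 14.3 CPM in LSD1cKO. It did not follow Alox15 in femur ligated LSD1WT replicate 2, where the list was at 11.1 CPM and Alox15 at 0.103 CPM. Of these markers 3 were tested, all 3 had an estimate above 0 over the 3 cultures and none was called. Icam2 gave 1.36 to 15.1 CPM of the sum, while Gata6, which defines these cells, reached at most 0.0927 CPM. The part of this list in the Alox15 result was not tested. The log2 fold change over the 3 cultures was 1.78 (SE 0.47, edgeR adjusted p = 0.0698), and without both femur LSD1WT replicate 2 libraries it was 2.34 (edgeR adjusted p = 0.00113).

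Alox12, the platelet-type lipoxygenase, was rare as well, at 0 to 1.23 CPM in LSD1WT and 0.103 to 0.964 CPM in LSD1cKO. Its log2 fold change was 0.36 with an SE of 0.61, so neither a rise nor a fall could be detected over the 3 cultures. In the unligated femur 11 counts (LSD1WT) stood against 35 (LSD1cKO), a ratio of 2.89 (95% exact interval 1.44 to 6.32, counting error only). All 11 came from LSD1WT replicate 1. The ratio was 0.842 (0.331 to 2.14) in the mandible and 0.944 (0.600 to 1.48) in the ligated femur. Pla2g4a, which supplies both branches, was at 24.9 to 78.7 CPM in LSD1WT and 28.2 to 61.1 CPM in LSD1cKO. Its log2 fold change was −0.01 (SE 0.27, 95% interval −0.61 to 0.59). With both femur LSD1WT replicate 2 libraries left out it was 0.45, which passed the threshold (edgeR adjusted p = 0.0269). The highest LSD1WT value, 78.7 CPM, was again femur unligated LSD1WT replicate 2. In the mandible alone Pla2g4a was at 39.2 and 41.0 CPM in LSD1WT and 54.5 and 61.1 CPM in LSD1cKO, without overlap.

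Ptgs2, the inducible cyclooxygenase, was higher in LSD1cKO in each culture. Mandible levels were 1.26 and 1.14 CPM (LSD1WT) against 2.99 and 4.05 CPM (LSD1cKO). Ligated femur levels were 0.809 and 0.975 CPM against 2.57 and 2.02 CPM, and unligated femur levels 0.420 and 0.248 CPM against 1.21 and 1.43 CPM. Groups did not overlap within any culture. Across cultures they did, since unligated femur LSD1cKO at 1.21 CPM lay below mandible LSD1WT at 1.26 CPM. Its log2 fold change over the 3 cultures was 1.61 (SE 0.21, 95% interval 1.14 to 2.07, edgeR adjusted p = 0.00367), a level 3.05 times as high. By culture it was 1.55 (mandible, SE 0.38), 1.36 (ligated femur, SE 0.39) and 1.96 (unligated femur, SE 0.41).

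Ptgs1, the constitutive cyclooxygenase, had the pattern of Alox5ap. Mandible levels were 14.2 and 13.4 CPM (LSD1WT) and 57.4 and 65.7 CPM (LSD1cKO), a log2 fold change of 2.16 (SE 0.88, edgeR adjusted p = 0.967). This SE rests on a spread estimated from all 12 libraries. The mandible value passed the threshold in 2 of 23 alternatives and ran from 1.71 to 2.51 over them. The 2 were the mandible libraries alone (37.7% of all genes called) and the fit without the 2 femur LSD1WT replicate 2 libraries (5.85%). In femur LSD1WT Ptgs1 was at 23.0 and 28.4 CPM in the replicate 1 libraries and at 161 and 134 CPM in the replicate 2 libraries, ligated and unligated. The femur LSD1cKO libraries lay between these at 61.6, 47.4, 68.1 and 54.5 CPM. Over the 3 cultures the log2 fold change was 0.27 (SE 0.64, 95% interval −1.14 to 1.68, edgeR adjusted p = 0.893). Without the 2 femur LSD1WT replicate 2 libraries it was 1.62 (edgeR adjusted p = 0.000234).

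Ptges, the terminal synthase of prostaglandin E2, had mandible levels of 3.98 ± 0.025 CPM (LSD1WT, SD, n = 2) and 4.71 and 5.50 CPM (LSD1cKO). In femur LSD1WT it was at 2.98 and 2.60 CPM in the replicate 1 libraries and at 1.18 and 1.16 CPM in the replicate 2 libraries. The 4 femur LSD1cKO libraries held 3.89 to 5.52 CPM, above all 4 of femur LSD1WT. Ptges was thus lowest in the same 2 libraries in which Alox5ap and Ptgs1 were highest. The log2 fold change was 0.96 (SE 0.30, edgeR adjusted p = 0.127), and 0.63 without those libraries (edgeR adjusted p = 0.0234).

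**Figure D2:**
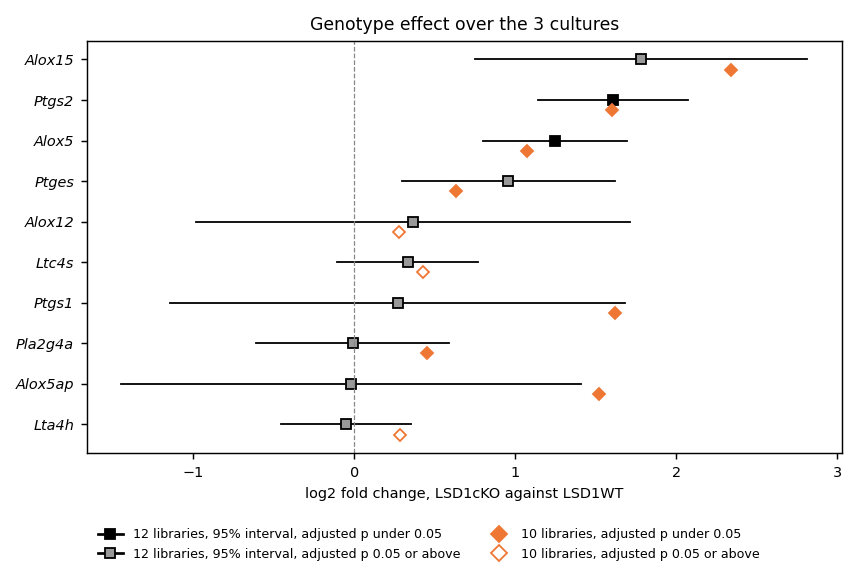
Log2 fold change of LSD1cKO against LSD1WT over the 3 cultures for the 10 genes (squares with 95% intervals, 12 libraries), and the same without the 2 femur LSD1WT replicate 2 libraries (diamonds, 10 libraries, drawn without an interval), filled or black where the adjusted p is under 0.05. Alox5 and Ptgs2 are called with either set, and Alox5ap moves from −0.02 to 1.52.

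Without the 2 femur LSD1WT replicate 2 libraries, 7 of the 10 genes were called over the 3 cultures, as were 24.2% of all genes (3867 of 16008 tested). The 7 were Alox5, Alox5ap, Alox15, Pla2g4a, Ptgs1, Ptgs2 and Ptges, all with a positive log2 fold change, of 1.07 for Alox5 and 1.60 for Ptgs2. With the 8 femur libraries alone none of the 10 was called by edgeR, where 0.147% of genes (22 of 14933) were, and Alox5 had a log2 fold change of 1.26 (edgeR adjusted p = 0.198) and Ptgs2 of 1.65 (edgeR adjusted p = 0.146). Both estimates are close to those of all cultures, so what was lost was the call and not the size. In these bulk libraries fewer cells of a type and less RNA per cell cannot be told apart. Nothing in the labels says that replicates were cultured apart beyond the mouse they came from, and p-values measure the spread between these libraries.

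Within a single culture none of the 10 genes was called between genotypes by edgeR. The share of all genes called was 0% in the mandible, 0.00648% in the ligated and 0% in the unligated femur, and 744, 1061 and 763 genes had an unadjusted p under 0.05. Of the 10 genes 4 had an unadjusted p under 0.05 in the mandible (Alox5, Alox15, Ptgs1 and Ptgs2), 3 in the ligated femur (Alox5, Alox15 and Ptgs2) and 3 in the unligated femur (Alox5, Ptgs2 and Ptges). DESeq2 called 146, 217 and 122 genes in the 3 cultures and, of the 10, Ptgs2 in the mandible and in the unligated femur. Without the 2 femur LSD1WT replicate 2 libraries edgeR called 5, 4 and 1 of the 10 in the mandible, ligated and unligated femur, where it called 5.85%, 9.35% and 2.47% of 16008 genes.

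For 9 of the 10 genes, all but Alox12, the mandible LSD1cKO pair lay wholly above the mandible LSD1WT pair. Over all genes that held for 34.1%. With ligated femur libraries it held for 5 of 10, against 14.8% of all genes, and with unligated femur libraries for 3 of 10 (Alox5, Ptgs2 and Ptges), against 9.82%. None of the 10 genes was without overlap and lower in LSD1cKO in any culture, which over all genes held for 34.8% in the mandible, 19.4% in the ligated and 8.57% in the unligated femur.

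The genotype effect was also compared between cultures. No gene was called in the difference between mandible and ligated femur or in that between ligated and unligated femur (0% in each by edgeR, with 149 and 53 genes at an unadjusted p under 0.05, and by DESeq2 1 and 0 genes). For Alox5 the mandible effect minus the ligated femur effect was −0.07 on the log2 scale, with a 95% interval from −1.32 to 1.19. That interval leaves room for a sizeable difference. Ptgs1 had the smallest unadjusted p of the 10, with an effect 2.91 higher in the mandible (SE 1.22, unadjusted p = 0.0421, edgeR adjusted p = 1.000). Without the 2 femur LSD1WT replicate 2 libraries this difference was 0.86.

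Site and ligature were compared within a genotype. No member passed the test in any of these 4 comparisons, in each of which 0% of genes were called by edgeR. Mandible against ligated femur had 2312 genes at an unadjusted p under 0.05 in LSD1cKO and 3051 in LSD1WT, and DESeq2 called 810 and 1190. In LSD1cKO, Ltc4s was at 7.42 and 7.39 CPM in the mandible and 17.8 and 16.0 CPM in the ligated femur, a log2 difference of −1.19 (SE 0.37, edgeR adjusted p = 0.214). That difference passed the threshold in 4 of 24 alternatives. Among them was the fit of the 4 ligated LSD1cKO libraries alone with the mouse as a term, since these mice gave both sites (edgeR adjusted p = 3.05e-05). The same fit called 38.2% of all genes (5530 of 14475) and 5 of the 10, which were Alox5, Alox5ap, Alox12, Ltc4s and Pla2g4a. A call in this fit is therefore common among all genes.

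Ligated against unligated femur had 148 genes at an unadjusted p under 0.05 in LSD1cKO and 118 in LSD1WT, and DESeq2 called 1 and 2. Ptgs2 was the member with the smallest unadjusted p in each genotype. In LSD1WT it was at 0.809 and 0.975 CPM with the ligature and 0.420 and 0.248 CPM without, a log2 difference of 1.39 (SE 0.41, unadjusted p = 0.00881, edgeR adjusted p = 1). It was 0.89 when both femur LSD1WT replicate 2 libraries were left out. In LSD1cKO the difference was 0.79 (SE 0.38, unadjusted p = 0.0673). Ptgs2 was higher in the ligated libraries without overlap in both genotypes, on 17 to 112 counts per pair of libraries. The share of all genes that separate in this way by ligature was not computed, so nothing is concluded from the separation.

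Levels were compared between the genes per kilobase of exon, with exon lengths from GENCODE. In LSD1WT, Alox5ap led with a median of 39.8 CPM per kb, within a range of 19.8 to 399. Ltc4s (9.28), Lta4h (7.29), Ptgs1 (6.63), Pla2g4a (5.77) and Alox5 (3.21) followed, and their ranges overlapped, other than that of Alox5 with that of Lta4h. Ptges (0.709) and Ptgs2 (0.195) were lower, and Alox12 (0.0864) and Alox15 (0.0458) were lowest. In LSD1cKO the order began with Alox5ap (96.8), Ptgs1 (15.3), Ltc4s (11.8) and Alox5 (8.30), and it ended with Ptges (1.28), Ptgs2 (0.500), Alox15 (0.265) and Alox12 (0.134). Per length, Ptgs1 exceeded Ptgs2 by 13.3 times or more in every library, and by 194.5 and 635 times in femur LSD1WT replicate 2, ligated and unligated.

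The 10 genes did not move as one across all 12 libraries. Over these the log2 CPM of Alox5ap and Ptgs1 correlated at 0.92 and that of Lta4h and Ptgs1 at 0.89. Alox5 and Alox5ap correlated at 0.10 and Ptgs1 and Ptgs2 at −0.02. Correlations without the 2 femur LSD1WT replicate 2 libraries were not computed. In the other libraries Alox5 and Alox5ap were each higher in LSD1cKO than in LSD1WT of the same culture. Alox5, Ptgs2 and Ptges correlated at 0.63 to 0.73 with each other. These are descriptions of libraries that share genotype, culture and in part the mouse, and carry no test. The genes most like Alox5 were Naaa (r = 0.98), Icam1 (0.98) and C3 (0.97). The genes most like Alox5ap were Wls, Cd53 and Ctps2, and those most like Ptgs1 were Tspan13, Pparg and Sulf2. Ptgs2 had P2ry10 (0.95) and Ptges had Lipm (0.97) as the nearest gene.

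**Figure D3:**
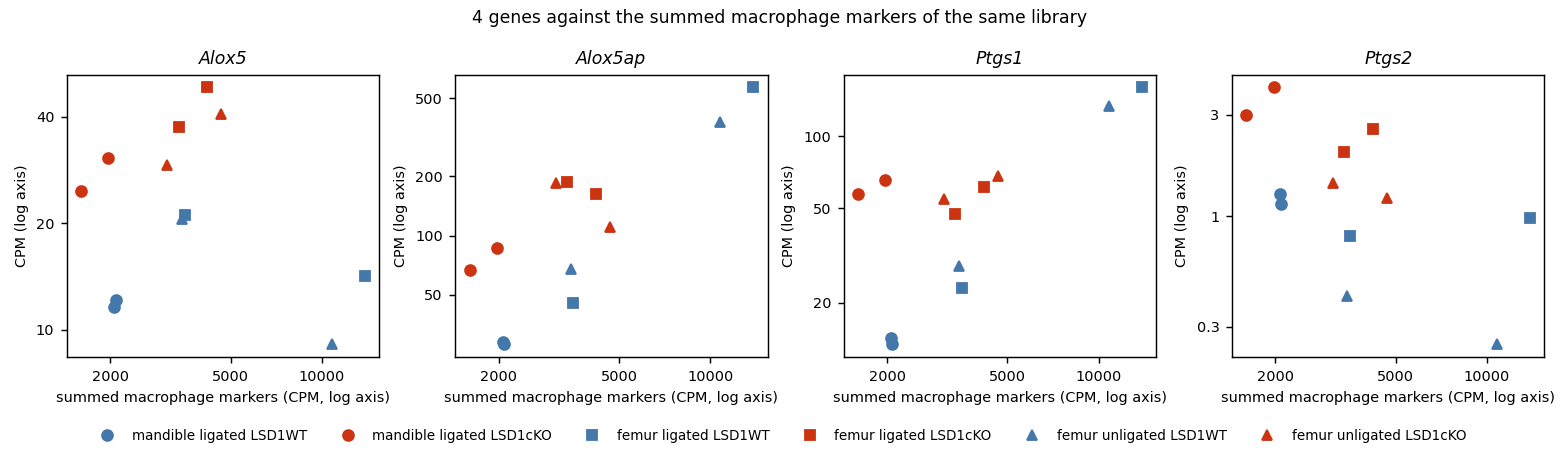
CPM of Alox5, Alox5ap, Ptgs1 and Ptgs2 (vertical log axes) against the summed CPM of 10 macrophage markers in the same library (horizontal log axes), with 1 symbol per library, its shape for the culture and its colour for the genotype. The 2 femur LSD1WT libraries with the 2 highest sums of macrophage markers have the highest Alox5ap and Ptgs1, and not the highest Alox5 or Ptgs2.

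In the 2 femur LSD1WT replicate 2 libraries Alox5ap, Ptgs1 and the macrophage sum were highest and the osteoclast sum was lowest. In the other femur libraries the macrophage sum did not follow Alox5ap. Ligated LSD1WT replicate 1 had a macrophage sum of 3530 CPM with Alox5ap at 45.4 CPM. Ligated LSD1cKO replicate 2 had a sum of 3363 CPM with Alox5ap at 187 CPM. The part of these markers in the results was not tested. Over the 3 cultures 9 of the 10 macrophage markers and 10 of the 12 osteoclast markers had an estimate below 0 in LSD1cKO, and none was called. The macrophage sum was 2063 to 13893 CPM in LSD1WT and 1603 to 4657 CPM in LSD1cKO, and the osteoclast sum 317.7 to 42047 CPM and 12142 to 30113 CPM. In the mandible the macrophage sum was 2063 and 2084 CPM in LSD1WT and 1603 and 1973 CPM in LSD1cKO. Of the 10 macrophage markers, however, 7 had an estimate above 0 and 3 below 0 in mandible LSD1cKO. Their median there was 0.26 on the log2 scale, and none was called. Adgre1, the F4/80 antigen and 1 of those above 0, was at 47.6 and 49.8 CPM in mandible LSD1WT and 117 and 187 CPM in mandible LSD1cKO. It does not stand for the list, whose sum was lower in both mandible LSD1cKO libraries. The osteoclast sum there was 27035 and 26913 CPM in LSD1WT and 15256 and 15393 CPM in LSD1cKO.

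Markers of other blood cells known for these enzymes were read as well. Of 10 megakaryocyte and platelet markers the sum was 911 and 442 CPM in femur LSD1WT replicate 2 (ligated and unligated) and 11.5 to 65.5 CPM in the other 10 libraries. It was thus highest in the same 2 libraries as Ptgs1, and Alox12 was at 1.23 and 0 CPM in them. Pf4 gave 883 and 433 CPM of the sum there, while Itga2b was at 5.23 and 1.49 CPM, Gp9 at 0.462 and 0 CPM, and Gp1bb at 0 in every library. Over the 3 cultures 5 of the 9 markers tested had an estimate above 0 in LSD1cKO and 4 below, and none was called. Mast cell and basophil markers summed to 1.08 to 5.36 CPM in LSD1WT and 6.34 to 10.4 CPM in LSD1cKO, with Cma1 and Mcpt4 at 0 in every library and at most 0.137 CPM of Cpa3. In LSD1cKO that sum was made up mostly of Kit and Gata2, which progenitors express too. Eosinophil markers summed to 5.51 to 63.3 CPM in LSD1WT and 20.3 to 48.6 CPM in LSD1cKO, of which Ccr3 gave 2.67 to 60.2 CPM, while Epx reached at most 0.122 CPM. Neutrophil markers summed to 89.5 to 279.8 CPM in LSD1WT and 139.8 to 306.0 CPM in LSD1cKO. Dendritic cell, B cell, and T and NK cell markers summed to at most 19.9, 8.83 and 18.0 CPM in any library. Stromal markers summed to 40.8 and 41.6 CPM in mandible LSD1WT, to 8.79 and 3.55 CPM in mandible LSD1cKO and to at most 27.8 CPM in the femur. Of the 5 stromal markers tested, 4 had an estimate below 0 in mandible LSD1cKO and 1 above, and none was called. The part of these cells in the results was not tested.

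The receptors, transporters and remaining enzymes of the pathway were read from a list of 56 genes found in the table, of which 38 passed the filter on low counts. Over the 3 cultures 2 of the 38 were called higher in LSD1cKO and none lower, a share near the 3.53% of all genes called. Their median log2 fold change was −0.05, against −0.06 for all genes tested. The 2 called were receptors. Ltb4r1, the high-affinity receptor of leukotriene B4, was 1 of 7 leukotriene and lipid mediator receptors tested, and Ptger4, the EP4 receptor of prostaglandin E2, 1 of 4 prostanoid receptors tested. No gene was called among 6 phospholipases, 1 lipoxygenase, 5 leukotriene-converting enzymes, 5 prostanoid synthases, 8 inactivating enzymes and 2 transporters.

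Ltb4r1 was at 1.47 and 0.991 CPM in mandible LSD1WT and 3.30 and 5.72 CPM in mandible LSD1cKO. Ligated femur levels were 0.776 and 2.21 CPM against 9.21 and 6.93 CPM, and unligated femur levels 1.15 and 0.787 CPM against 6.13 and 3.19 CPM. All 6 LSD1cKO libraries lay above all 6 LSD1WT libraries. The log2 fold change was 2.20 (SE 0.32, edgeR adjusted p = 0.00503), or 4.58 times as high, and with the femur libraries alone it was 2.35 (edgeR adjusted p = 0.110).

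Ptger4 was at 3.02 and 2.90 CPM in mandible LSD1WT and 9.34 and 11.5 CPM in mandible LSD1cKO. Ligated femur levels were 5.04 and 13.0 CPM against 14.3 and 15.6 CPM, and unligated femur levels 6.22 and 9.44 CPM against 14.4 and 15.7 CPM. The genotypes did not overlap within any culture. The log2 fold change was 1.16 (SE 0.26, edgeR adjusted p = 0.0393), and it passed the threshold in 12 of 23 alternatives.

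**Figure D4:**
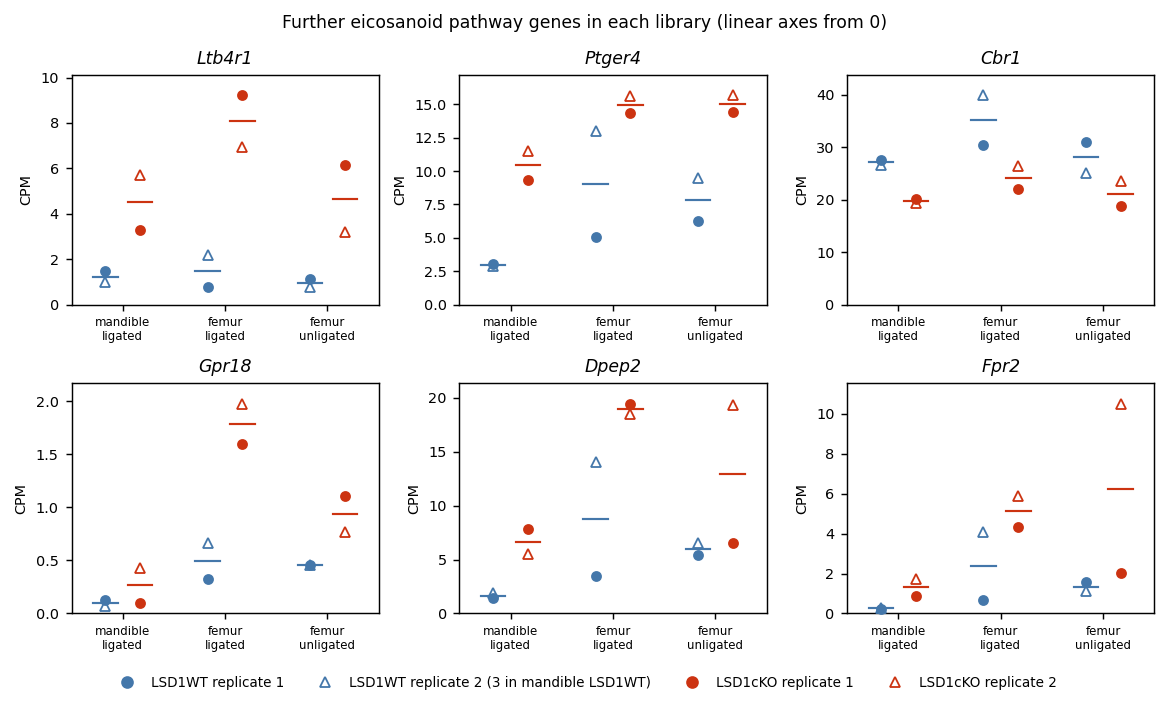
CPM of 6 further pathway genes (vertical axes, linear from 0) in the 3 cultures (horizontal axes), with LSD1WT in blue and LSD1cKO in red, 1 symbol per library and a bar at the mean of the 2 libraries. Ltb4r1 is higher in all 6 LSD1cKO libraries than in any LSD1WT library, and Ptger4 within each culture.

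The 4 genes with the next smallest p did not pass the threshold. Cbr1, a carbonyl reductase that also acts on prostaglandins, had a log2 fold change of −0.47 (SE 0.11, edgeR adjusted p = 0.0521). Gpr18, a receptor of lipid mediators, had 1.45 (SE 0.36, edgeR adjusted p = 0.0589). Dpep2, a dipeptidase that turns leukotriene D4 into leukotriene E4, had 1.41 (SE 0.38, edgeR adjusted p = 0.0755), and Fpr2, a receptor of lipoxins and formyl peptides, had 1.84 (SE 0.52, edgeR adjusted p = 0.0957). Without the 2 femur LSD1WT replicate 2 libraries all 4 were called, in the same directions, where 24.2% of all genes were called. These 4 had been picked for their small p in the same data, so their calls add no separate evidence.

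Several pathway genes were highest in the femur LSD1WT replicate 2 libraries, and these were chosen after their values were seen. Hpgd, which inactivates prostaglandins, was at 252 and 238 CPM there and at 1.08 to 8.59 CPM in the other 10 libraries. Hpgds, the haematopoietic prostaglandin D synthase, was at 378 and 376 CPM against 40.8 to 142 CPM. Mgst1, a microsomal glutathione transferase, was at 299.8 and 96.0 CPM against 2.02 to 23.7 CPM. Cysltr1, a receptor of cysteinyl leukotrienes, was at 116 and 71.2 CPM there, and the other femur libraries held 20.7 and 23.2 CPM in LSD1WT and 41.7 to 65.0 CPM in LSD1cKO. In the mandible Cysltr1 was at 11.1 and 12.3 CPM in LSD1WT and 23.5 and 31.2 CPM in LSD1cKO.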

How the data were processed

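PolyA RNA from 12 preosteoclast cultures was sequenced. The authors deposited whole-number counts of reads per Ensembl gene, with no normalization. The submitters' processing notes name HISAT2 2.1.0, FastQC, featureCounts, edgeR and GRCm39, with no role or order, and strand settings are not given in the sources used here. Reads of a gene and an antisense neighbour may therefore be merged. Groups follow the labels.

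In R 4.3.3 with edgeR 4.0.16, genes were kept by filterByExpr, libraries scaled by TMM, and quasi-likelihood models fitted to all 12 libraries, 1 with 6 conditions and 1 with culture and genotype. P-values were adjusted by Benjamini-Hochberg over 15425 genes, held to 0.05. CPM rested on TMM-scaled sizes, and log2 CPM added a prior count of 2. SE is that of the log2 fold change, and intervals are at 95%. At these depths 3 counts, taken as the limit of a count of 0, equal 0.0927 to 0.154 CPM, and counting intervals cover counting error only. Alternatives were DESeq2 1.42.0, limma 3.58.1 voom with mice as random effects, RLE and upper-quartile scaling, other filters, a replicate block, subsets of libraries and each library left out. Summing the mandible LSD1WT pair was chosen after seeing the data. Leaving out the 2 femur LSD1WT replicate 2 libraries rests on their marker levels in these same data. The fits were tested on simulated counts. Members, marker lists and pathway list were chosen with earlier results of these data known. Named by rule beyond the 10 genes are Kdm1a and pathway genes past the threshold up to the 6 of smallest p. The rule also covers, for each member, the 3 genes of highest correlation. Single marker genes, and the pathway genes described as highest in femur LSD1WT replicate 2, were named outside this rule. Promoters are RefSeq windows and exon lengths GENCODE vM21, both on GRCm38, a build other than that of the counts.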

Additional observations from a re-analysis of the deposited data

Results flagged for a closer look

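Among the 20 sets of 6 libraries tested (10 genes in each genotype), 2 values stood apart, each because the gap to the next library was a large share of the whole range. Chance gives about 1 such value in 20 sets. Both were the highest of the 6 LSD1WT libraries and both came from femur unligated LSD1WT replicate 2, one of the 2 libraries with few osteoclast transcripts. Alox15 was at 0.580 CPM there, with the next LSD1WT library at 0.226 CPM. Pla2g4a was at 78.7 CPM there, with the next LSD1WT library at 41.0 CPM.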

How the results depend on the processing

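Alox5, Ptgs2 and Ltb4r1 kept their direction in all 23 alternatives and passed the threshold in 22 of them, the exception being the femur libraries alone. Ptger4 passed in 12 of 23, with log2 fold changes from 0.84 to 1.62. Depth limits Alox15, Alox12 and Ptgs2, which rest on 5 to 218 counts per pair of libraries. Of the members, 2 passed the threshold over the 3 cultures. This became 4 with DESeq2 (Alox15 and Ptges added; 8.09% of all genes called), 3 with a filter of 1 count in any library (2.39%) and 3 without femur unligated LSD1WT replicate 2 (3.97%), Alox15 being added in both, 7 without both femur LSD1WT replicate 2 libraries (24.2%) and 0 with the femur libraries alone (0.147%). In the mandible 0 became 1 with DESeq2 (0.947% of all genes), 7 with the compared conditions alone (37.7%) and 5 without both libraries (5.85%). In the ligated femur 0 became 4 without both libraries (9.35%), and in the unligated femur 1 with DESeq2 (0.807%) and 1 without both libraries (2.47%). For mandible against femur in LSD1cKO 0 became 1 with DESeq2 (5.58%), 5 with the compared conditions alone (42.1%), 4 without both libraries (21.7%) and 5 with the mouse as a replicate block (38.2%), and in LSD1WT 2 with DESeq2 (8.73%), 2 with a filter of 1 count in any library (3.02%), and 0 to 2 with 1 library left out (2 without femur ligated LSD1WT replicate 1, 23.2%). The cause of these moves was not tested. The other 4 comparisons kept their 0 called members in all alternatives.

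Sign changes were found for log2 fold changes near 0 or between unlike replicates. Over the 3 cultures Alox5ap (−0.02) became 0.049 with upper-quartile scaling, 0.041 with 1 count in any library, 0.024 with a mean of 10 counts, 1.52 without both femur LSD1WT replicate 2 libraries, 0.0028 with the conflicting library as femur, 0.079 with the replicate block and 0.28 with voom. Pla2g4a (−0.01) became 0.0036 with DESeq2, 0.0037 with RLE, 0.049 with upper-quartile scaling, 0.048 with 1 count in any library, 0.034 with a mean of 10 counts, 0.45 without both libraries and 0.022 with voom. Lta4h (−0.05) became 0.0055 with 1 count in any library, 0.28 without both libraries and 0.0032 with the conflicting library as femur, and Ptgs1 (0.27) became −0.58 with the femur libraries alone. In the ligated femur Alox5ap (−0.81) became 2.03, Ptgs1 (−0.75) 1.33, Alox12 (−0.16) 0.44, Lta4h (−0.33) 0.14 and Pla2g4a (−0.02) 0.20 without both libraries, Alox5ap 0.14 with voom, and Alox12 0.40 with the conflicting library as femur. Pla2g4a there also became 0.021 with DESeq2, 0.021 with RLE, 0.047 with upper-quartile scaling, 0.016 with 1 count in any library, 0.053 with a mean of 10 counts, 0.022 with the compared conditions alone, 0.0028 with voom and 0.063 with the mandible LSD1WT pair summed. In the unligated femur Alox5ap (−0.59) became 1.14, Ptgs1 (−0.40) 1.12, Lta4h (−0.13) 0.34, Pla2g4a (−0.53) 0.53 and Ltc4s (0.032) −0.12 without both libraries, and Ltc4s −0.032 with voom. With 1 library left out in turn, Alox5ap ran from −0.20 to 0.78, Pla2g4a from −0.056 to 0.37 and Lta4h from −0.069 to 0.12 over the 3 cultures. In the ligated femur Alox5ap ran from −1.61 to 1.95, Ptgs1 from −1.47 to 1.24, Alox12 from −0.48 to 0.36, Lta4h from −0.55 to 0.049 and Pla2g4a from −0.066 to 0.12, and in the unligated femur Alox5ap from −1.28 to 1.14, Ptgs1 from −1.06 to 1.12, Lta4h from −0.41 to 0.34, Ltc4s from −0.48 to 0.46 and Pla2g4a from −1.07 to 0.53. In the mandible Alox12 (−0.28) ran from −1.01 to 0.29. In each of these femur results the sign changed when LSD1WT replicate 2 of that culture was left out, where the lone LSD1WT library is assumed to vary like the other groups.

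Equal replicate numbers stand for the same mouse only where a mouse gave both sites, and the replicate differences of the 2 LSD1cKO mice that did so correlated at 0.026 between the sites. Those of ligated and unligated femur LSD1WT, from different mice, correlated at 0.78. A replicate block across all libraries left 2 members called over the 3 cultures, as without it, and changed the number of members called in no comparison.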
